A study of Rattus norvegicus with 6 samples.

Results

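The peroxide removal genes described here are 10 rat genes whose proteins make, destroy or help destroy hydrogen peroxide: Srxn1, Txnrd1, Prdx1, Prdx3, Prdx6, Gpx1, Gpx3, Cat, Sod1 and Sod2. They were taken by name, as every probe whose accession belongs to those symbols and that passed the filter given under processing. This gave 18 probes among the 42036 kept of 61657. All 10 were well above background on every array and were among the 31087 genes tested. The rats were male, of the Sprague-Dawley strain, and 5 weeks old at purchase. They received o-anisidine hydrochloride over 4 weeks at a daily 700 mg/kg (3 rats) or water over the same 4 weeks (3 rats, the controls), and RNA of the renal cortex was measured. All rats were on the same basal diet. Each rat was measured on 1 single-colour (Cy3) Agilent array, and o-anisidine is an aromatic amine.

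Superoxide dismutases turn superoxide into hydrogen peroxide, Sod1 in the cytosol and Sod2 in mitochondria. Catalase in peroxisomes, glutathione peroxidases and peroxiredoxins then remove the peroxide. Peroxiredoxins draw electrons from thioredoxin, which thioredoxin reductase recharges with NADPH, and sulfiredoxin repairs peroxiredoxins whose active cysteine has been over-oxidised. Srxn1, Txnrd1 and Prdx1 are known targets of NRF2, a transcription factor of the antioxidant response. In kidney, the proximal tubule is rich in peroxisomes and mitochondria and is the main source of the secreted peroxidase Gpx3.

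Markers of kidney cells were read, though their detection cannot tell cortex from other parts of the kidney. All 11 listed proximal tubule genes were measured, and the thick ascending limb gene Umod and the collecting duct gene Aqp2 were well above background on every array. Arrays correlated at 0.992 to 0.993 across genes within the o-anisidine group, 0.993 to 0.994 within controls and 0.990 to 0.992 between groups. The slides were not even over the groups: o-anisidine 3 shared slide 1 with all 3 controls, and o-anisidine 1 and 2 were on slide 2. At an adjusted p under 0.05 (limma, Benjamini-Hochberg), 11 genes of the whole array were higher in treated cortex (0.0354%) and 8 were lower (0.0257%). Of 14 listed red blood cell markers 13 were measured and 4 passed that threshold, all higher in treated cortex. The mean was higher in treated cortex for 12 of the 13. By the same limma test Tfrc was lower (log2 difference -0.85, adjusted p = 0.329) and Slc4a1 higher by 0.26 (adjusted p = 0.721). Of the 13, Rhag was kept only through the treated rats, where it was well above background. The list had a summed signal relative to the 75th percentile of 1081 to 1306 after o-anisidine and 527 to 726 in controls. Most of this sum came from the globin probes Hba-a1 and Hbb-b1, with mean log2 values of 9.43 and 8.97 after o-anisidine. The next brightest, Slc4a1, was at 3.16. In whole tissue, a change in the share of a cell type and a change in RNA per cell cannot be told apart.

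Values below are log2 of a probe's signal relative to the 75th percentile of its array, so 0 is the level of that percentile, and levels of different probes are not compared. Differences are o-anisidine minus control on the log2 scale, and a gene is represented by its brightest probe unless another is named. A group "does not overlap" the other where every array of it lies on the same side of all arrays of the other.

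Among the 10 genes, Srxn1 had the widest gap between the groups, with a log2 difference of 1.17, against 0.32 for Txnrd1 and -0.14 to 0.25 for the others. No member passed the adjusted threshold of 0.05 over all genes (limma, Benjamini-Hochberg, two-sided), and Srxn1 and Txnrd1 were the 2 members with an unadjusted p under 0.05, both higher, against 6.36% of all genes higher and 5.14% lower at that level. Srxn1, Txnrd1, Prdx3 and Prdx6 were higher on every o-anisidine array than on every control array (4 of 10), as were 9.55% of all genes. None of the 10 was lower without overlap, against 8.88% of all genes. The members' median difference was 0.12, with 7 above 0, beside a median of 0.00367 over all genes, of which 50.9% were above 0. With 3 rats a group, the precision of every value is limited by that number and by the gene's spread between rats.

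**Figure D1:**
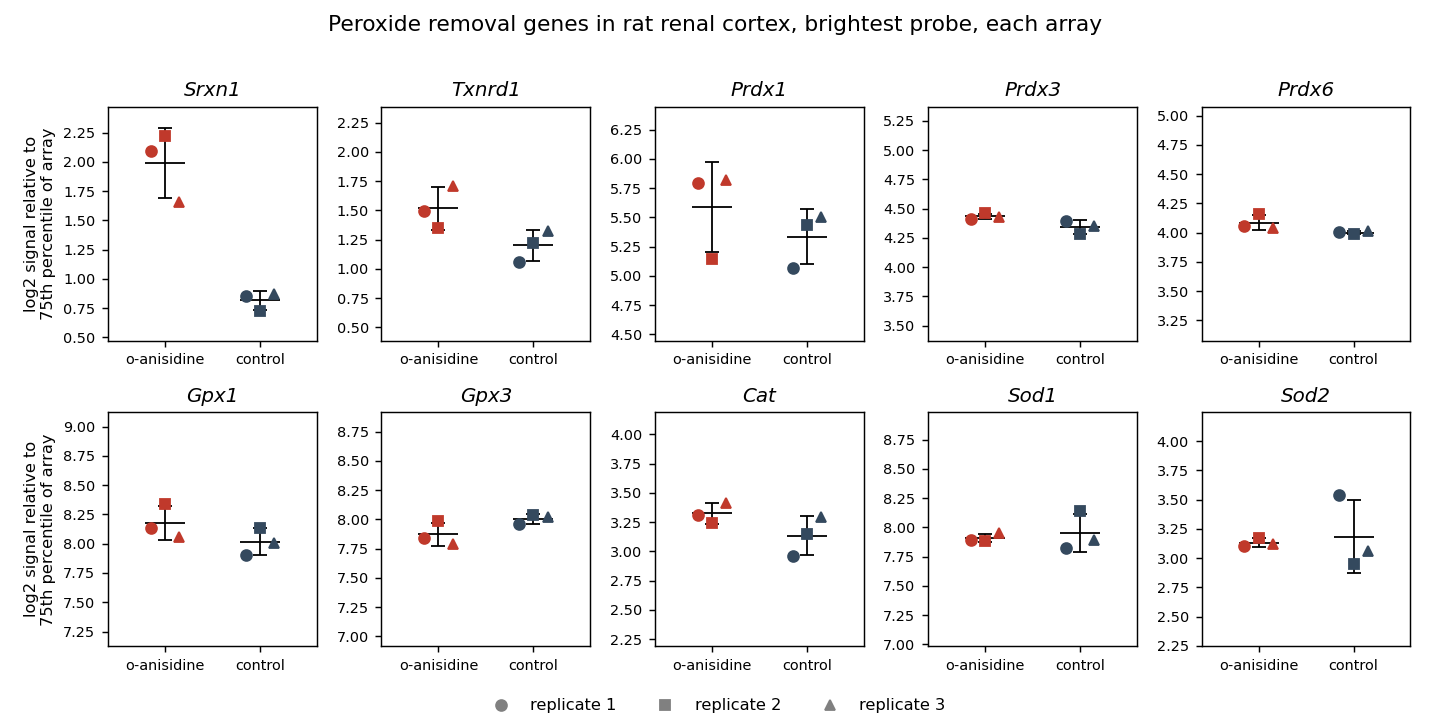
Log2 signal relative to the array's 75th percentile (vertical axes, all spanning the same range) of the brightest probe of each gene, with o-anisidine arrays left and control arrays right, marker shape showing the replicate, and the black bar the mean with its SD. Srxn1 lies between 1.65 and 2.22 after o-anisidine and between 0.72 and 0.87 in controls, while the Sod1 and Sod2 groups overlap.

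The promoters of the NRF2 targets are shown, chosen with the differences known. By brightest probe these members had the largest differences, though that of Prdx1 (0.25, SE 0.22) lay within the spread between replicates. The other Gpx1 probe gave 0.27. Whether NRF2 had a part in these differences was not tested. Each window runs from 250 bases before to 25 bases after the RefSeq start in the GRCr8 build. Capitals mark TGACNNNGC, the core of the antioxidant response element, and TGACTCA, the site read by AP-1 factors, each searched on both strands (TGACTCA read backwards is TGAGTCA). The Txnrd1 window shown is that of the second of its listed starts, which held a match, while the window of the first held neither motif. Windows were found for 9 of the 10 genes, and Prdx6 is named only.
Srxn1, chr3:161064562-161064836, plus strand: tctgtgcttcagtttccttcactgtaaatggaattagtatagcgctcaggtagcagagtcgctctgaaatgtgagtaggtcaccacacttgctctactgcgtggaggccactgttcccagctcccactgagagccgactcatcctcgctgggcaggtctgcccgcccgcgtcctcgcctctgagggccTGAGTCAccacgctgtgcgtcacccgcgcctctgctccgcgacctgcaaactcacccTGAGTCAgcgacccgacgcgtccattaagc
Txnrd1, chr7:22755880-22756154, minus strand: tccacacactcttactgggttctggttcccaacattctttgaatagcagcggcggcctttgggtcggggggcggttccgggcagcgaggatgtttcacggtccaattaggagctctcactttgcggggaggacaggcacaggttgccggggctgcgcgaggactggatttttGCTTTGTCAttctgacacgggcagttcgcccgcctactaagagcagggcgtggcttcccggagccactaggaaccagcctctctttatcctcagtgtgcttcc
Prdx1, chr5:135383656-135383930, plus strand: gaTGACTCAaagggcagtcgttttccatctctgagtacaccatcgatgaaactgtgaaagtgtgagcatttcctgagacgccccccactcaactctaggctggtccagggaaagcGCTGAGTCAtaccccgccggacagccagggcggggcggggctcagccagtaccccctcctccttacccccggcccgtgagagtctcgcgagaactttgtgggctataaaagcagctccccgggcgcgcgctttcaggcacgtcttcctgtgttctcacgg

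Counting from the start, with bases before it negative, Srxn1 held TGACTCA at -62 to -56 and at -5 to 2, and no TGACNNNGC in this window. The site at -5 to 2 is followed by gc and so reads TGAGTCAGC, with G where TGACNNNGC has C. Such variants of the core were not searched for. Prdx1 held TGACTCA at -248 to -242 and at -133 to -127, and the second overlaps a TGACNNNGC, TGACTCAGC, at -135 to -127 on the strand opposite to the gene. Txnrd1 held TGACAAAGC on the opposite strand at -78 to -70, and Sod2 held TGACCCTGC on the opposite strand at -35 to -27. The other windows, the first Txnrd1 start included, held neither. Over 33469 windows of the same length, 11.2% held TGACNNNGC and 4.37% held TGACTCA. A match is a description of letters, and no match says only that these letters are not in the window.

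Srxn1, sulfiredoxin, had log2 signals of 2.09, 2.22 and 1.65 in o-anisidine rats 1, 2 and 3, against 0.85, 0.72 and 0.87 in control rats 1, 2 and 3. All treated arrays lay above all controls, and the lowest treated array was o-anisidine 3, on the slide of the controls. The mean was 1.99 ± 0.30 after o-anisidine and 0.82 ± 0.08 in controls (SD, n = 3 each). The difference was 1.17, or 2.25-fold (SE 0.16, limma with Benjamini-Hochberg adjusted p = 0.0993). Its 95% interval ran from 0.79 to 1.55. On slide 1 alone, with o-anisidine 3 as the lone treated array, the difference was 0.84. A lone treated array holds no spread between treated rats, so only the size is given.

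Srxn1 was also measured by a second probe, A_42_P703664. Its log2 signals were -3.64, -3.80 and -4.07 in o-anisidine rats 1, 2 and 3, against -4.72, -4.54 and -4.11 in control rats 1, 2 and 3. The groups did not overlap, though o-anisidine 3 and control 3 lay close together. Over all 18 kept probes of the members, 7 were higher without overlap and 0 lower, against 9.17% and 9.6% of the 42036 probes kept. Of these member probes 0 passed the adjusted threshold, against 0.0452% of kept probes that were higher and 0.0238% that were lower. The second Srxn1 probe gave a difference of 0.62 (SE 0.19, adjusted p = 0.310 over 42036 probes), smaller than that of A_42_P842833. The lowest signal on the array called well above background lay between -6.19 and -5.80 across the arrays. Normexp background correction, in place of the scanner software's subtraction, was run with an offset of 50 added to every signal. Such an offset makes the differences of dim probes smaller. Under this setting the second probe's difference was 0.21 (limma adjusted p = 0.404) and that of A_42_P842833 was 1.16 (adjusted p = 0.0368). The part of the offset in the second probe's smaller difference was not tested. On slide 1 the second probe differed by 0.39.

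**Figure D2:**
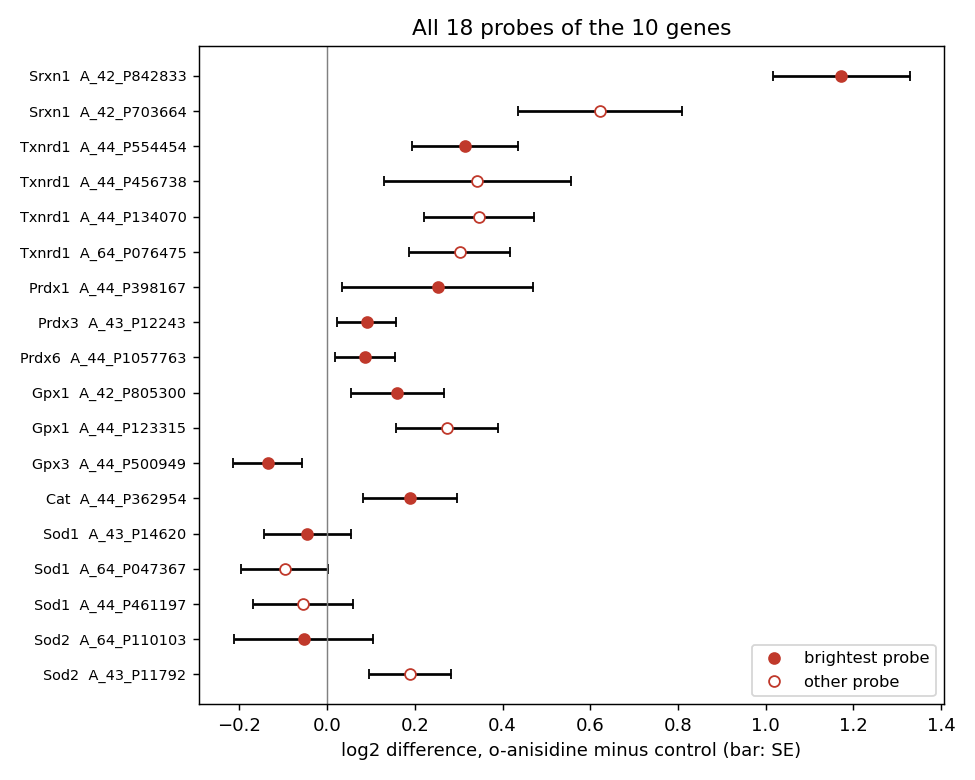
Log2 difference between o-anisidine and control (horizontal axis) for each of the 18 kept probes of the 10 genes. Bars are 1 SE, and filled points mark the brightest probe of a gene. The Srxn1 probes sit at 1.17 and 0.62, the 4 Txnrd1 probes between 0.30 and 0.35, and the 3 Sod1 probes between -0.10 and -0.05.

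Txnrd1, the cytosolic thioredoxin reductase, was at 1.49, 1.35 and 1.71 in o-anisidine rats 1, 2 and 3, against 1.06, 1.22 and 1.32 in control rats 1, 2 and 3. The groups did not overlap, but o-anisidine 2 was close to control 3. The means were 1.52 ± 0.18 after o-anisidine and 1.20 ± 0.13 in controls (SD, n = 3 each), a difference of 0.32 (SE 0.12, adjusted p = 0.416, 95% interval 0.02 to 0.61). Its other 3 probes gave differences of 0.34, 0.35 and 0.30, and in 1 of them, A_44_P456738, the groups overlapped. That probe had a control SD of 0.44 against 0.01 in treated rats. Within slide 1 the difference of the brightest probe was 0.51.

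Prdx1, the abundant cytosolic peroxiredoxin, separated the treated rats from each other more than the groups. Its log2 signals were 5.79, 5.14 and 5.82 in o-anisidine rats 1, 2 and 3, against 5.07, 5.43 and 5.50 in control rats 1, 2 and 3. O-anisidine 1 and 3 lay above all controls, while o-anisidine 2 lay below 2 of them. The difference was 0.25 (SE 0.22, adjusted p = 0.692, 95% interval -0.28 to 0.78), within the spread between replicates. Without o-anisidine 2 it was 0.47 (SE 0.15), and without control 1, o-anisidine 1 or o-anisidine 3 it was 0.12, 0.15 and 0.13. On slide 1 it was 0.49.

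By brightest probes, o-anisidine 2 thus ranked first among the treated rats for Srxn1 and last for Txnrd1 and Prdx1. It was in the middle for Srxn1 A_42_P703664 and first for Txnrd1 A_44_P456738, where the treated values were nearly level. For Txnrd1 A_44_P134070 and A_64_P076475 it was last. A pair of other NRF2 targets, chosen with their values already known, is given beside the ranks of the brightest probes. Nqo1, a quinone reductase, was at -1.21, -2.61 and -1.28 in o-anisidine rats 1, 2 and 3, against -2.46, -2.92 and -2.54 in control rats 1, 2 and 3. Gclm, the modifier subunit of the enzyme that starts glutathione synthesis, was at -1.70, -2.58 and -1.86, against -2.78, -2.68 and -2.33 in controls. These were picked for that pattern. Over the list of other NRF2 targets and regulators, o-anisidine 2 was the lowest treated array for 8 of 15 genes, the middle for 5 and the highest for 2, and it lay above all controls for 7, within their range for 5 and below it for 3. Over the members it was the highest for 6 and the lowest for 4. Over all 31087 genes it was the highest for 11925, the middle for 10772 and the lowest for 8390. It lay above all controls for 10373 of these, within their range for 12829 and below it for 7885. Nqo1 and Gclm both had o-anisidine 2 inside the range of the controls, and neither difference passed the threshold (0.94 with adjusted p = 0.440, and 0.55 with adjusted p = 0.469).

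Prdx3, the mitochondrial peroxiredoxin, was at 4.41, 4.46 and 4.43 in o-anisidine rats 1, 2 and 3, against 4.40, 4.28 and 4.35 in control rats 1, 2 and 3. The treated arrays were all higher, and o-anisidine 1 was almost level with control 1. Its difference of 0.09 (SE 0.07, adjusted p = 0.649, 95% interval -0.08 to 0.26) turned to -0.02 with normexp background correction and was 0.06 without control 2. Prdx6, a peroxiredoxin that uses glutathione rather than thioredoxin, was at 4.06, 4.16 and 4.04 after o-anisidine, against 4.002, 3.99 and 4.01 in controls. Again the groups did not overlap, and the difference was 0.09 (SE 0.07, adjusted p = 0.671, 95% interval -0.08 to 0.25). Without o-anisidine 2 it was 0.05, and on slide 1 it was 0.04. The control SD of Prdx6 was 0.01 and that of the treated rats 0.07.

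Gpx1, the main intracellular glutathione peroxidase and a selenoprotein, was at 8.14, 8.34 and 8.06 in o-anisidine rats 1, 2 and 3, against 7.91, 8.14 and 8.01 in control rats 1, 2 and 3. The groups overlapped. The difference was 0.16 (SE 0.11, adjusted p = 0.609, 95% interval -0.10 to 0.42), and it was -0.02 with quantile normalization. Its other probe gave 0.27 (SE 0.12, adjusted p = 0.435). The brightest probe differed by 0.04 on slide 1, by 0.08 without o-anisidine 2 and by 0.10 without control 1. Red blood cells carry Gpx1, Prdx2, catalase and Sod1 protein, and the red blood cell markers moved as given above. Their part in these values was not tested.

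Gpx3, the secreted glutathione peroxidase made by the proximal tubule, was the member with the most negative difference. It was at 7.84, 7.98 and 7.79 in o-anisidine rats 1, 2 and 3, against 7.96, 8.04 and 8.02 in control rats 1, 2 and 3. O-anisidine 2 lay inside the control range and the other treated arrays below it. The difference was -0.14 (SE 0.08, adjusted p = 0.562, 95% interval -0.33 to 0.06), with -0.29 (adjusted p = 0.207) after quantile normalization and -0.22 on slide 1. The proximal tubule markers had a summed relative signal of 1567 to 1873 after o-anisidine and 1547 to 1713 in controls, with a median difference of 0.04 over 11 genes.

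Cat, catalase, was at 3.31, 3.24 and 3.42 in o-anisidine rats 1, 2 and 3, against 2.96, 3.15 and 3.29 in control rats 1, 2 and 3. The groups overlapped through o-anisidine 2 and control 3. The difference was 0.19 (SE 0.11, adjusted p = 0.550, 95% interval -0.07 to 0.45), with 0.28 on slide 1. Without control 1 it was 0.10 (adjusted p = 0.802). Other peroxisome proteins had a median difference of 0.02 over 21 genes, with 13 of them above 0.

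Sod1, the cytosolic copper-zinc dismutase, was at 7.89, 7.88 and 7.95 in o-anisidine rats 1, 2 and 3, against 7.83, 8.14 and 7.89 in control rats 1, 2 and 3. All treated values lay within the range of the controls. Its 3 probes gave -0.05, -0.10 and -0.06, and the brightest had a 95% interval of -0.29 to 0.20 (adjusted p = 0.889). With quantile normalization it gave -0.19. Sod2, the mitochondrial manganese dismutase, was at 3.10, 3.17 and 3.12 in o-anisidine rats 1, 2 and 3, against 3.54, 2.95 and 3.06 in control rats 1, 2 and 3. The treated values again lay within the control range, with control 1 apart from the other two. The probes of Sod2 gave -0.05 (SE 0.16, adjusted p = 0.921) and 0.19 (SE 0.09, adjusted p = 0.488), and the 95% interval of the brighter was -0.44 to 0.33. On slide 1 the other gave 0.06. Both dismutases changed sign when 1 control was left out, to 0.05 for Sod1 without control 2 and 0.12 for Sod2 without control 1.

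**Figure D3:**
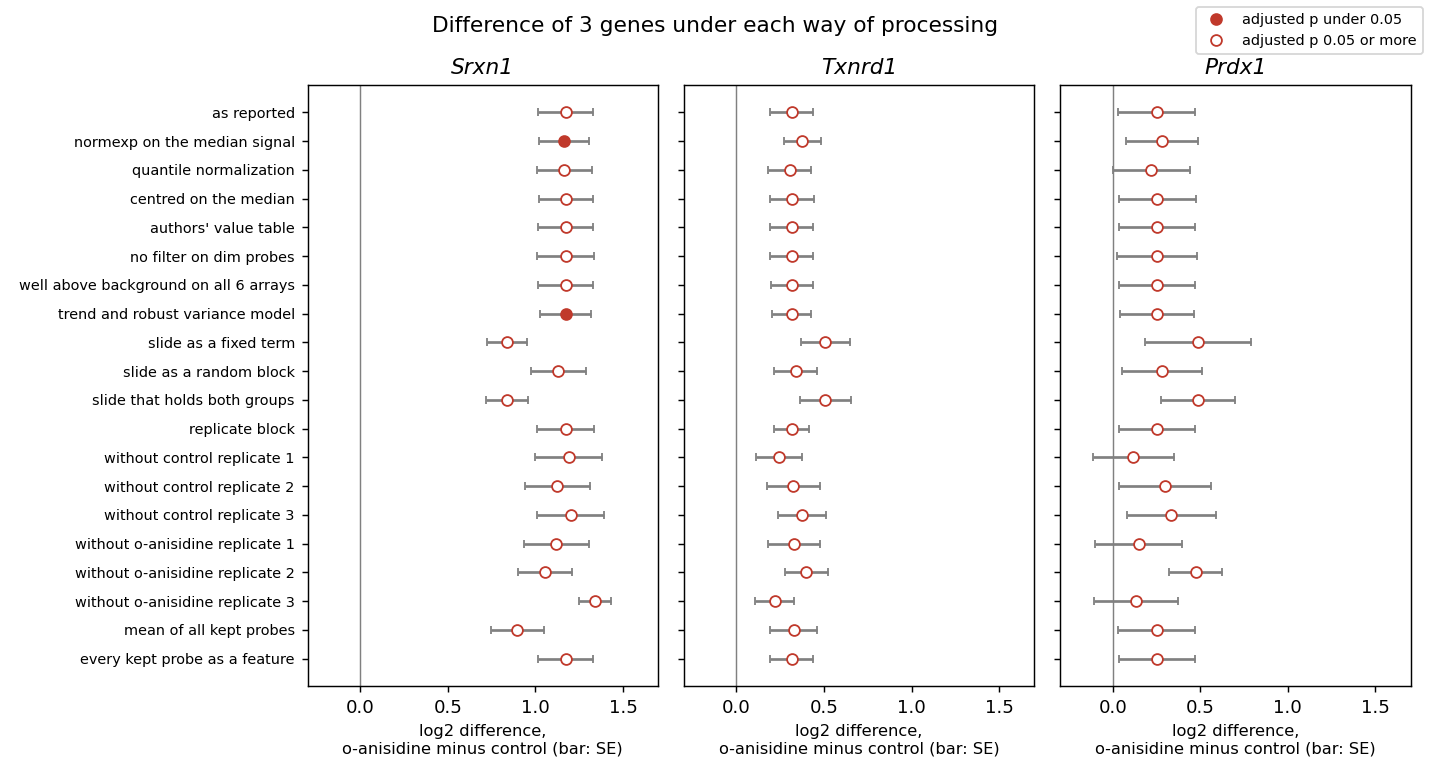
Log2 difference between o-anisidine and control (horizontal axes, bars of 1 SE) for Srxn1, Txnrd1 and Prdx1 as reported and under each of 19 other ways of processing, filled points marking an adjusted p under 0.05. Srxn1 stays between 0.84 and 1.34 and is filled under 2 settings, Txnrd1 stays between 0.22 and 0.51, and Prdx1 spans 0.12 to 0.49. The bar for the slide that holds both groups, with a lone treated array, does not hold the spread between treated rats.

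The rest of the peroxide defence was read from lists of related genes. None of their members passed the adjusted threshold. Of 9 other peroxiredoxins, glutathione peroxidases, dismutases and their copper chaperone, 5 were above 0, with a median difference of 0.01. Without overlap, 2 were higher and 1 lower, against 9.55% and 8.88% of all genes. Gpx4, the peroxidase of membrane lipid peroxides, had the smallest p of this list. It was at 7.71, 7.64 and 7.63 in o-anisidine rats 1, 2 and 3, against 7.38, 7.41 and 7.49 in control rats 1, 2 and 3 (difference 0.23, SE 0.07, adjusted p = 0.318). Prdx2, the peroxiredoxin of red blood cells, had a difference of 0.08 (SE 0.06, adjusted p = 0.677).

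In the thioredoxin and glutaredoxin list 10 of 13 genes were above 0, with a median of 0.06. Txn2, mitochondrial thioredoxin, had its smallest p (0.24, SE 0.07, adjusted p = 0.335), and the cytosolic thioredoxin Txn1 had 0.26 (SE 0.08, adjusted p = 0.357). In both, every treated array lay above every control, as was so for 9.55% of all genes. Glutathione and NADPH supply had a median of 0.19 over 11 genes, 8 above 0. Gsr, glutathione reductase, was at 0.93, 1.22 and 0.96 in o-anisidine rats 1, 2 and 3, against 0.51, 0.60 and 0.69 in control rats 1, 2 and 3 (0.44, SE 0.10, adjusted p = 0.223). Idh1, the cytosolic NADP-dependent isocitrate dehydrogenase, had the smallest p of that list and went the other way. Its log2 signals were 5.44, 5.14 and 5.13 in o-anisidine rats 1, 2 and 3, against 6.45, 6.04 and 6.03 in control rats 1, 2 and 3 (-0.93, SE 0.15, adjusted p = 0.124). Txn1, Gsr and Prdx2 are named here with their values already known.

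Other NRF2 targets and regulators had a median of 0.14 over 15 genes, 11 above 0, where Slc7a11 was kept only through the controls. Among them Sqstm1, an autophagy receptor, had the smallest p (0.34, SE 0.09, adjusted p = 0.253). Enzymes that make superoxide or peroxide had a median of 0.03 over 17 genes, 11 above 0, and Duox1, a dual oxidase, had the smallest p (0.33, SE 0.10, adjusted p = 0.335). Pex10, a peroxisome assembly protein, led its list with -0.28 (SE 0.06, adjusted p = 0.207). Genes of selenoprotein synthesis and transport had a median of -0.04 over 14 genes, 3 above 0, and Selenof, a selenoprotein of the endoplasmic reticulum, had the smallest p (-0.14, SE 0.07, adjusted p = 0.477). The lists are described by counts and medians and carry no test of their own.

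**Figure D4:**
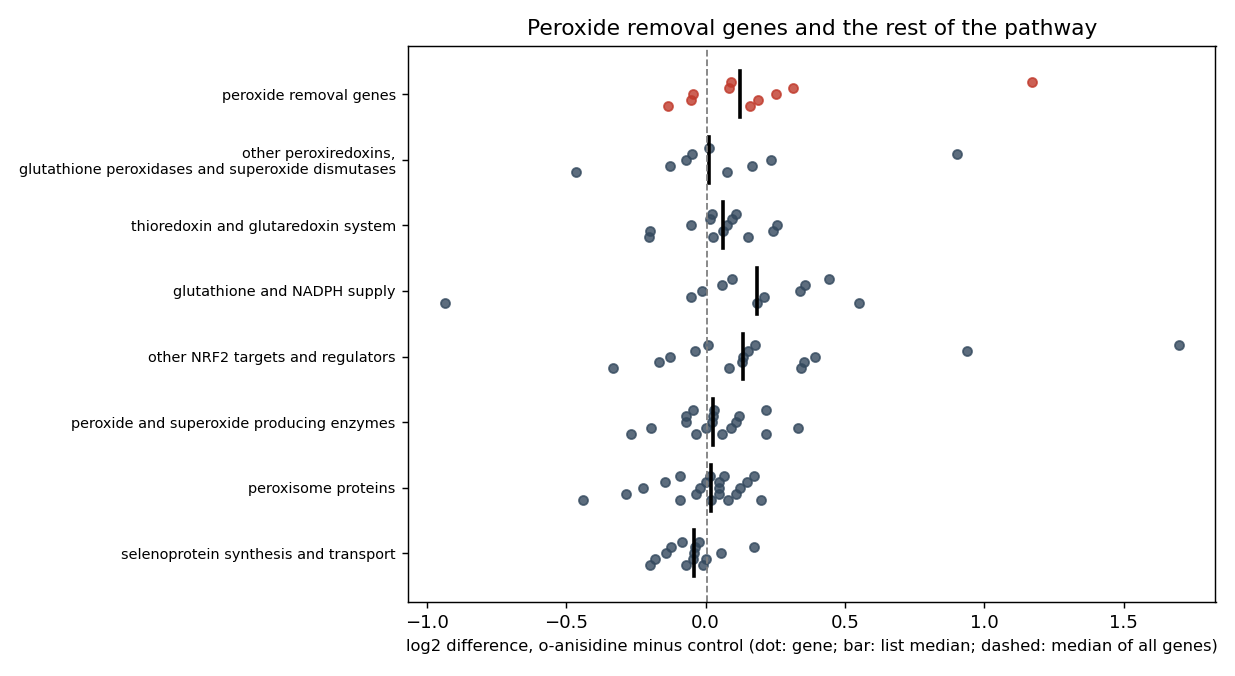
Log2 difference between o-anisidine and control (horizontal axis) of every measured gene of the peroxide removal genes (top row) and 7 related lists, with a bar at each list's median and a dashed line at the median of all genes. The rightmost peroxide removal gene is Srxn1 at 1.17, and the list medians lie between -0.04 and 0.19.

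The genes whose log2 signal followed that of Srxn1 most closely over the 6 arrays, among 2866 genes with a symbol and an SD of at least 0.25, were Shisa5 (Pearson r = 0.997), Aldh1l1 (0.995), Ptprr (0.989), Akr7a3 (0.983) and Cdkn2d (0.980). These correlations are descriptions, since the 6 arrays fall into 2 groups which such a correlation also reads. Akr7a3, an aldo-keto reductase, was at 7.47, 7.52 and 7.32 in o-anisidine rats 1, 2 and 3, against 6.85, 6.85 and 7.02 in control rats 1, 2 and 3 (difference 0.53, SE 0.09, adjusted p = 0.134). Their differences lay between 0.46 and 0.59, all smaller than that of Srxn1, and none passed the adjusted threshold.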

How the data were processed

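Groups came from the sample titles, and replicates are separate rats per the series design. Per the file headers, each array's file gives a processed intensity for every spot, made with Agilent Feature Extraction 10.7.1.1 (10.7 in the submitters' processing notes), with background subtraction and spatial detrending within the array, and flags for spots well above background, saturated or outlying, which are other deposited values. No spot was saturated. Control spots were left out, leaving 61657 probes, and values were log2 of the signal minus the array's 75th percentile. A probe was kept where 1 group or both had it well above background in every rat; with 16 outlying probes dropped, 42036 stayed. Accessions were matched to RefSeq symbols of GRCr8, and promoter windows are from the same RefSeq table. The array was annotated on rn4 per the file headers, so no probe coordinates are given. Each gene was its brightest kept probe (31087 genes; 12015 have a symbol). The main comparison used limma 3.58.1 in R 4.3.3 (lmFit and eBayes, two-sided, no covariates), with Benjamini-Hochberg adjustment. A second fit used every kept probe. The code was tested on simulated data.

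The authors' table of intensity scaled between arrays is linear and uncentred, equals the processed signal divided by the 75th percentile, and its columns matched scanner files of the same group under other replicate numbers (column medians 0.104 to 0.108). Replicate numbers here follow the scanner files. The planned normexp alternative named the mean signal, and the median signal was used, with an offset of 50. In each list the text names members past the adjusted threshold (at most 2 each way) or else the member of smallest p, and it names the 5 genes most correlated with Srxn1. The members, lists and rules were chosen with earlier results of these data known.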

Additional observations from a re-analysis of the deposited data

How the results depend on the processing

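Of 19 alternatives, Srxn1 passed the adjusted threshold under 2, normexp on the median signal (chosen after seeing the data; adjusted p = 0.0368) and the variance model with trend and robust estimation (0.0422), which each put the count of higher members at 1. The other alternatives gave Srxn1 an adjusted p of up to 0.279. Signs turned for Prdx3 with normexp (-0.0223), Gpx1 with quantile normalization (-0.0201) and Sod2 where its kept probes were averaged (0.0678). With 1 array left out, Sod2 ran from -0.170 (without control 2) to 0.124 (without control 1). Sod1 ran from -0.107 (without control 1) to 0.0472 (without control 2), and its probe A_44_P461197 from -0.114 to 0.0610 with the same arrays left out. The causes were not tested. Quantile normalization left 2 members higher and 1 lower without overlap, against 9.11% and 10.2% of all genes. Slide 1 alone, with 1 treated array, left 6 higher and 1 lower, against 25.2% and 31.7% of all genes. Leaving out 1 array gave 4 to 6 members higher and 0 to 1 lower without overlap, against 13.2% to 20.2% and 12.7% to 14.9% of all genes.

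Over all genes, the higher and lower calls at the adjusted threshold were 2 to 16 and 1 to 5 with 1 array left out. They were 68 and 18 with normexp, 91 and 29 with trend and robust estimation and 2 and 1 with slide as a fixed term. Higher calls were 5 with no filter on dim probes and 19 with every probe as a feature, and lower calls were 5 with all 6 arrays well above background. With the replicate number as a block the calls were 1 and 0 over all genes and 0 among the members, and Srxn1 had an adjusted p = 0.228. Deviations from the group means correlated at r = 0.0201, 0.0773 and 0.0123 for same-numbered arrays and at -0.0485 to 0.0293 for other pairs. With 3 arrays behind each mean, these values cannot settle whether same-numbered rats share more than a number.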

Other observations

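Among red blood cell genes past the threshold, Rhd and Ahsp had the largest log2 rises (2.61 and 2.34, adjusted p = 0.00477 and 0.0419, limma with Benjamini-Hochberg). All 9 mitosis genes measured were higher without overlap, against 9.55% of all genes, with a median difference of 1.44. Of these 9 genes, 1 (Aurkb) was kept only through the treated rats. Racgap1 had the smallest p and the smallest difference of that list (0.90, adjusted p = 0.0891). In the leukocyte list Cd52 rose by 2.12 (adjusted p = 0.0380), and S100a8 (1.36, adjusted p = 0.155) and S100a9 (1.37, adjusted p = 0.115) were also higher without overlap, against 9.55% of all genes. The median of that list was -0.10 over 10 genes. Over 9 kidney injury genes the median shift from the control mean was 1.46, 0.17 and 1.15 in o-anisidine rats 1, 2 and 3, so o-anisidine 2 lay apart from the other treated rats. Krt19 had the smallest p (2.88, adjusted p = 0.0894), and Ccl2 was lower without overlap (-0.80, adjusted p = 0.137), as were 8.88% of all genes. S100a8, S100a9, Ccl2, Aurkb, Tfrc, Slc4a1, Hba-a1 and Hbb-b1 are named outside the naming rule, after their values were known.

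Collecting duct genes had a median of -0.28 over 9 genes, 8 of them below 0, and Scnn1b, a sodium channel subunit, had the smallest p (-0.55, adjusted p = 0.101). The smallest p of the remaining lists belonged to Slc22a12 in the proximal tubule (0.59, adjusted p = 0.112), Egf in the thick ascending limb (-0.17, adjusted p = 0.589) and Calb1 in the distal convoluted tubule (-0.04, adjusted p = 0.950). Podxl led the podocyte list (-0.31, adjusted p = 0.440), Emcn the endothelial list (-0.22, adjusted p = 0.448) and Col1a2 the fibroblast list (-0.32, adjusted p = 0.491).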
